A study of Mus musculus with 2 samples.

Results

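Grb10, Ddc and Cobl are neighbouring genes of mouse chromosome 11, and Grb10 and Ddc belong to 1 imprinted locus. The locus was defined as the stretch from 11 to 13 Mb of chromosome 11 (mm10), and every called chromatin loop with at least 1 anchor in it was taken, which gave 13 of the 4982 loops of the deposited list. Each loop is a contact between 2 intervals, its anchors, that the authors' software called as stronger than its background. The locus was picked because of where its loops lay and because 4 of them met at 1 anchor, so positions and counts of loops are given as a description, with no test.

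The contacts came from Micro-C, which cuts fixed chromatin between nucleosomes with micrococcal nuclease and then ligates ends that lie close together. The cells were V6.5 male mouse embryonic stem cells with the wild-type genotype, grown on gelatin. Both samples received siGLO, a control siRNA reagent, at 50 nM for 48 h, and they form 1 group, siControl. The 2 samples share 1 loop list with no value for either sample alone, so replicate spread could not be measured. The read depth is unknown, and no second condition was analysed here. The list does not separate the maternal and paternal copies of the locus.

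Imprinted genes are expressed mainly from the copy inherited from 1 parent. Grb10 encodes an adaptor protein that binds the activated insulin and insulin-like growth factor receptors and restrains growth. It is known for expression from the maternal copy in most tissues and from the paternal copy, through other promoters, in neurons. Ddc encodes aromatic L-amino acid decarboxylase, which makes dopamine and serotonin, and is known to be imprinted in the developing heart. Cobl encodes cordon-bleu, which nucleates actin filaments.

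All 3 genes lie on the minus strand, so their starts face higher coordinates. Ddc (gene ID 13195) covers 11814101 to 11898144 (84.0 kb), Grb10 (gene ID 14783) 11930499 to 12037428 (106.9 kb) and Cobl (gene ID 12808) 12236676 to 12465022 (228.3 kb). The gap from Ddc to Grb10 is 32.4 kb and the gap from Grb10 to Cobl is 199.2 kb. Promoter windows from RefSeq (GRCm38.p6, which is mm10) gave 2 start sites for each gene. Ddc starts at 11898144 and 11890408, Grb10 at 12037420 and 12027971, and Cobl at 12464960 and 12412140. The windows run from 250 bases before to 50 bases after a start and are written 5′ to 3′ on the strand of the gene. They are shown for both Grb10 starts, for the upstream Cobl start, and for the divergent genes Zpbp and Spata48, whose starts lie inside a loop anchor. Capitals mark GGGCGG (the GC box, bound by Sp and Klf factors) and a loose form of the core bound by CTCF, which holds cohesin at loop anchors (CC, 4 bases of any kind, G, 2 bases of any kind, GGC), each searched on both strands.
Grb10 upstream start, chr11:12037371-12037670, minus strand: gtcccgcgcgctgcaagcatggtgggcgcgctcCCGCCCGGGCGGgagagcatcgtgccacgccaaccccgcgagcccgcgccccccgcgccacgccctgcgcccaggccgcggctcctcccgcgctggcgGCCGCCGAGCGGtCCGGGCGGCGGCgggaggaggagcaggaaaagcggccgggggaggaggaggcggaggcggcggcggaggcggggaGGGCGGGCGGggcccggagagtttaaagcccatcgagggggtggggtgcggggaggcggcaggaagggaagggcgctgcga
Grb10 downstream start, chr11:12027922-12028221, minus strand: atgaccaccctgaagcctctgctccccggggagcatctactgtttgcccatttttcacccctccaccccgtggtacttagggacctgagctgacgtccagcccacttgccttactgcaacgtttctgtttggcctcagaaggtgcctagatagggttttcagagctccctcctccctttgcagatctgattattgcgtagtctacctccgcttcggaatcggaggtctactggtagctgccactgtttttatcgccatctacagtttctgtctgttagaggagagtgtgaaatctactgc
Cobl upstream start, chr11:12464911-12465210, minus strand: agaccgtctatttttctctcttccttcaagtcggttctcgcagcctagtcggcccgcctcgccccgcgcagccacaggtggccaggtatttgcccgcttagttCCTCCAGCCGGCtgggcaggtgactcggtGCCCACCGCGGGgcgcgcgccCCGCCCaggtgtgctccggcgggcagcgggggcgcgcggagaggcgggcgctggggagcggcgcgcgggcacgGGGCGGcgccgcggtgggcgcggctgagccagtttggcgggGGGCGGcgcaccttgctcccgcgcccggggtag
Zpbp start, chr11:11462370-11462669, minus strand: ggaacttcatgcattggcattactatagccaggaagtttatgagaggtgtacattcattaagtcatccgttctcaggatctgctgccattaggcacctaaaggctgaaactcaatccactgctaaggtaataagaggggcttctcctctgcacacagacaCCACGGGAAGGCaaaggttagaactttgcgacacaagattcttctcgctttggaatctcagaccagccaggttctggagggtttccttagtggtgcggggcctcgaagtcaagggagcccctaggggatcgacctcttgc
Spata48 first start, chr11:11463494-11463793, plus strand: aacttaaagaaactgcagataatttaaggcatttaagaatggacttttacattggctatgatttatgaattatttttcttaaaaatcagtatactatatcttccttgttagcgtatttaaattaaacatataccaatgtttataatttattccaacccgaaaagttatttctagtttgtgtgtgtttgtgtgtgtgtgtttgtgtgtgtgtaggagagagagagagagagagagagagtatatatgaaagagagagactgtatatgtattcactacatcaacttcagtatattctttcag
The upstream Grb10 window held 45 CpG dinucleotides in 300 bases, at percentile 98.2 of 32851 RefSeq promoter windows, and was 80.0% G and C. It held 5 GC boxes and 2 loose CTCF cores, and 1 core overlapped a box. The downstream Grb10 window held 9 CpGs (percentile 55.4) and neither motif. The 2 windows of Grb10 thus stood at the high end and near the middle of all promoters in CpG content. The upstream Cobl window resembled the upstream Grb10 window, with 42 CpGs (percentile 97.2), 3 GC boxes and 2 loose cores. The downstream Cobl window had no CpG and 1 loose core, and the Ddc windows had 2 and 5 CpGs and neither motif. The Zpbp window held 7 CpGs and 1 loose core, and the first Spata48 window 2 CpGs and neither motif. Of all windows, 35.7% held a GC box and 25.3% a loose core, so a match describes the letters and not a bound site.

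Loops were dense from Zpbp to just past Cobl and sparse to either side. Counted by anchor midpoints, the window of 2 Mb held 23 anchors, or 5.75 loops per Mb. Overlapping autosomal windows of 2 Mb, 1 starting at each Mb, had a median of 2 loops per Mb (quartiles 0.75 and 3), and 36 of 2405 (1.497%) were as dense or denser. On chromosome 11 alone the median was 2.5 loops per Mb, and 2 of 120 windows, this one included, reached 5.75. The density depends on where the edges fall. The overlapping windows that start at 10 and 12 Mb had 3.75 and 2 loops per Mb. With the window widened by 500 kb on each side the density was 3.83 loops per Mb. Of the 13 loops, 10 had both anchors inside the window and 3 ran out of it. All 10 lay between 11450001 and 12550000. The nearest loops that the definition left out ended 1860 kb below the window (peak score 4.72) and began 3260 kb above it (4.42). Beyond the 3 loops that leave the window, its surroundings thus held none for more than 1 Mb on either side.

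**Figure D1:**
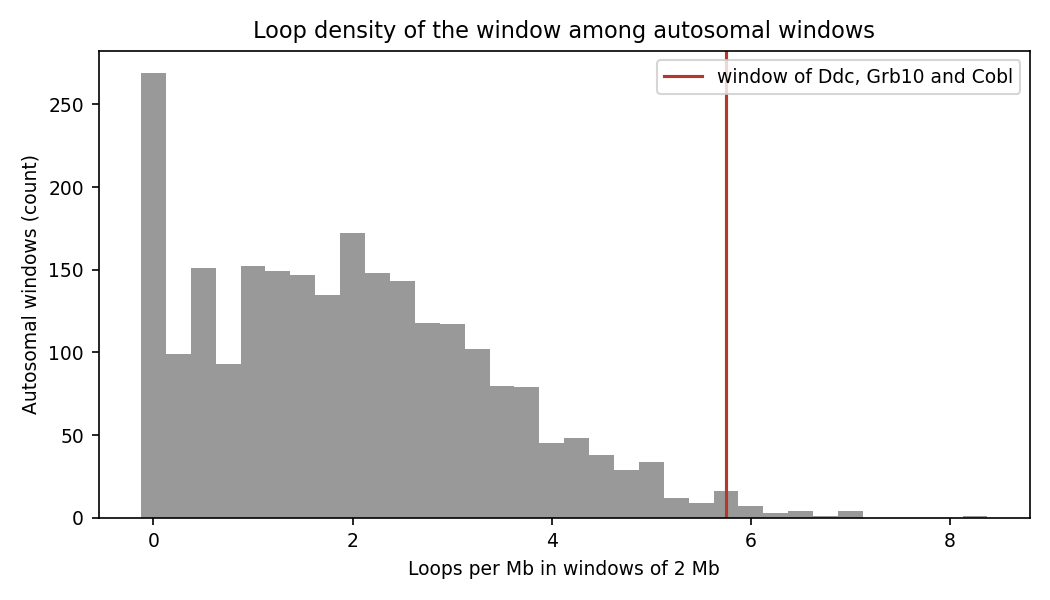
The histogram counts autosomal windows of 2 Mb by their loops per Mb, and the vertical line marks the window with Ddc, Grb10 and Cobl. That window has 5.75 loops per Mb, against a median of 2 over autosomal windows.

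Grb10 held anchors of 5 loops, and the direction of the loops changed inside the gene. At least 5 loops were listed for 0.176% of all protein-coding genes and at least 4 for 0.444%. From the 3′ end of Grb10, the anchors lay at 11930001 to 11935000, 11970001 to 11980000, 11980001 to 11990000 and 12000001 to 12025000. The first covers the last base of the gene, and the midpoints of the next ones lie between 39.3 and 51.0% of the gene's length from the 3′ end. The loops from these 3 places, 4 in all, ran toward lower coordinates, to Ddc and sites beyond it. The last, with its midpoint at 76.7% of the gene's length, ran toward higher coordinates, past Cobl. Between 11990001 and 12000000, inside Grb10, only 1 loop of any kind passed, the loop that joins Ddc to the anchor past Cobl. Elsewhere in Grb10 up to 5 loops covered a position, and over Ddc 4 to 6.

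**Figure D2:**
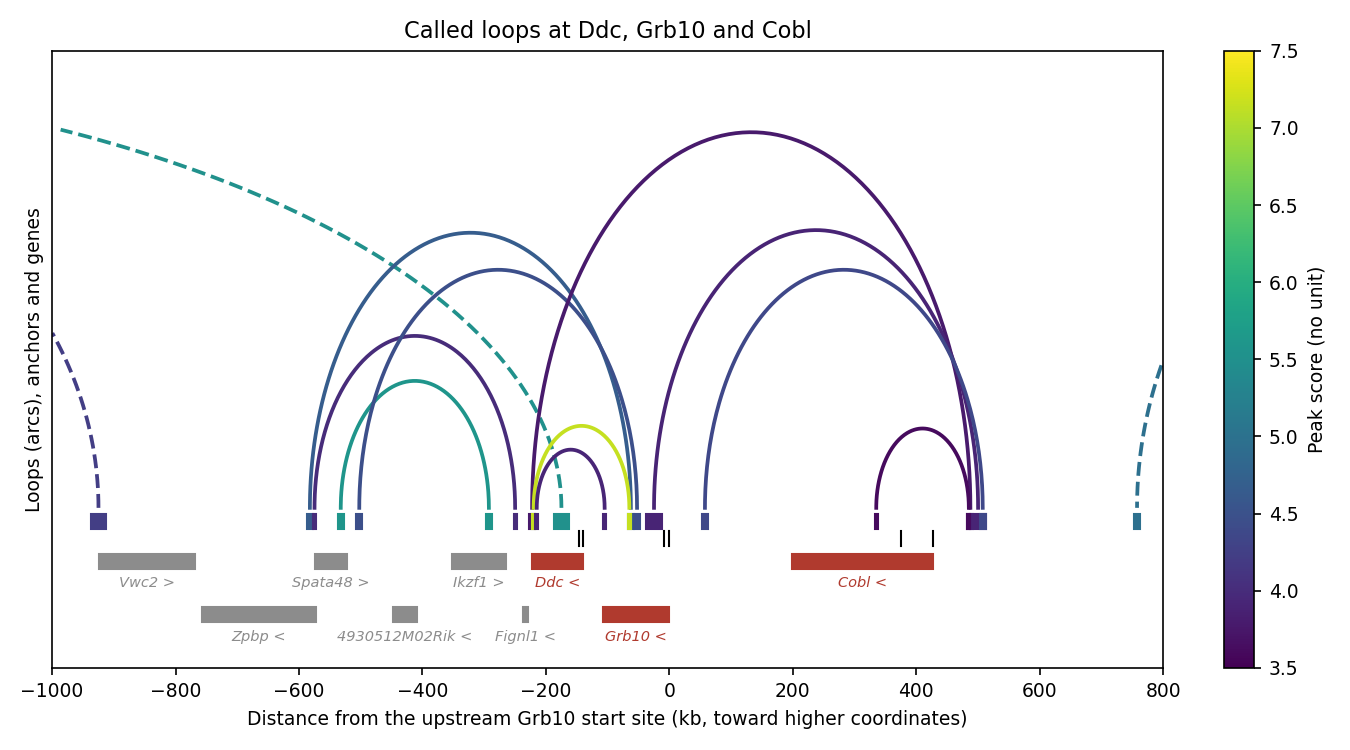
Arcs join the 2 anchors of each called loop, coloured by peak score, with anchors as blocks, genes below (arrowheads give the strand) and black ticks at the start sites of the 3 genes. The x axis is the distance in kb from the upstream Grb10 start, arc heights have no unit, and dashed arcs leave the window; 4 arcs meet past Cobl, and none of the ticks falls on an anchor.

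The loop of highest peak score in the locus joined the 3′ part of Ddc to the body of Grb10. This loop of 5 kb pixels ran from 11815001 to 11820000 in Ddc to 11970001 to 11975000 in Grb10, over 155 kb. Its peak score, the caller's unitless measure of a loop's strength, was 7.14, at percentile 90.9 of the 1265 loops of 5 kb pixels. Its peak pixel, the deposited signal of the contact map at the loop, was 7.38 (percentile 93.2). The regional score agreed in rank at 3.43 (percentile 93.0), while the ratio of the peak pixel to the mean of its 8 neighbours, 1.499, was low for its pixel size (percentile 12.02). The 8 neighbours averaged 4.92, the highest such mean among the 5 kb loops of the locus. The start of the long noncoding RNA LOC102631979, which lies within Grb10 on the same strand, is 2.48 kb from the Grb10 anchor.

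A shorter loop ended at the 3′ end of Grb10. It ran over 110 kb from 11820001 to 11825000, 5.90 kb inside Ddc from its 3′ end, to the anchor over the last bases of Grb10. Its peak score was 3.91 (percentile 16.3 of 5 kb pixels) and its peak pixel 4.37 (percentile 29.8). Its ratio to neighbours, 2.00, was at percentile 77.3. The 2 short contacts between Ddc and Grb10 therefore differed in which measure was high, the longer with the higher score and signal and the shorter with the higher contrast to its direct neighbours.

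The remaining loops of Grb10 were longer. A loop of 10 kb pixels joined 11450001 to 11460000, in Zpbp, to 11970001 to 11980000, the same part of Grb10 that met Ddc. Its span was 520 kb and its peak score 4.67 (percentile 75.3 of 10 kb pixels). Zpbp encodes a protein of the sperm acrosome. The adjoining Grb10 anchor, 11980001 to 11990000, was joined over 450 kb to 11530001 to 11540000, which overlaps no gene record, with a peak score of 4.46 (percentile 68.5). Peak pixels of both were in the lower part of their pixel size, at 5.70 and 5.84 (percentiles 22.8 and 26.8). The loop of 25 kb pixels from 12000001 to 12025000 to 12525001 to 12550000 spanned 525 kb. Its peak score was 3.90 (percentile 51.0), and it was the only Grb10 loop that ran away from Ddc.

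Ddc held anchors of 4 loops, of which 3 started within 15 kb at its 3′ end. The anchors 11810001 to 11820000 and 11815001 to 11820000 overlap, and 11820001 to 11825000 adjoins them. All 3 loops ran toward higher coordinates. Besides the contacts with Grb10 described above, the third passed over Grb10 and Cobl to 12520001 to 12530000, over 710 kb. It had a peak score of 3.78 (percentile 39.6 of 10 kb pixels) and a peak pixel of 4.45 (percentile 3.76). Its anchor of 10 kb pixels was the one that covered the 3′ end of Ddc. The fourth loop, of 25 kb pixels, was the longest of the locus at 3275 kb. It joined Tns3, a gene of a focal adhesion protein, at 8575001 to 8600000, to 11850001 to 11875000 in Ddc. Its peak score was 5.51 (percentile 89.9) with a peak pixel of 7.57, low for its pixel size (percentile 6.34). Its span was above the upper quartile of that pixel size (1218.75 kb), and the percentiles are not matched for span. The Ddc anchor also covers the start of the long noncoding RNA 1700042O10Rik.

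Cobl held an anchor of 1 loop. It joined 12370001 to 12375000, inside Cobl between the records of the noncoding RNAs Gm12002 and Gm30596, to 12520001 to 12525000, over 150 kb. Its peak score of 3.60 was the lowest of the locus (percentile 5.65 of 5 kb pixels), and its peak pixel of 3.26 was at percentile 1.78. Cobl was thus mostly enclosed by loops rather than anchored, with 3 or 4 loops over every part of it.

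Past the start of Cobl, 4 loops met at 12520001 to 12550000. This merged anchor overlaps no gene record of any kind. It begins 55.04 kb from the upstream Cobl start and ends 7.22 kb before the pseudogene Gm19314. All 4 loops ran toward lower coordinates, and their other anchors lay in Ddc, in Grb10, between Grb10 and Cobl, and in Cobl. The spans were 710, 525, 450 and 150 kb, and the peak scores 3.78, 3.90, 4.36 and 3.60. The loop from the intergenic site, 12090001 to 12100000, which lies 52.6 kb from the upstream end of Grb10, had the highest score of these (percentile 65.2 of 10 kb pixels). The share of merged anchors with at least 4 loops was 0.275% (24 of 8740) over the whole list. Of those 24 anchors, 19 sent all their loops in 1 direction, 12 of them toward lower coordinates. A meeting point of 1 direction was therefore usual among anchors with as many loops. The 4 anchors that make it up were called at 3 pixel sizes and no pair was identical, so the meeting point is 30 kb wide and rests on merging.

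**Figure D3:**
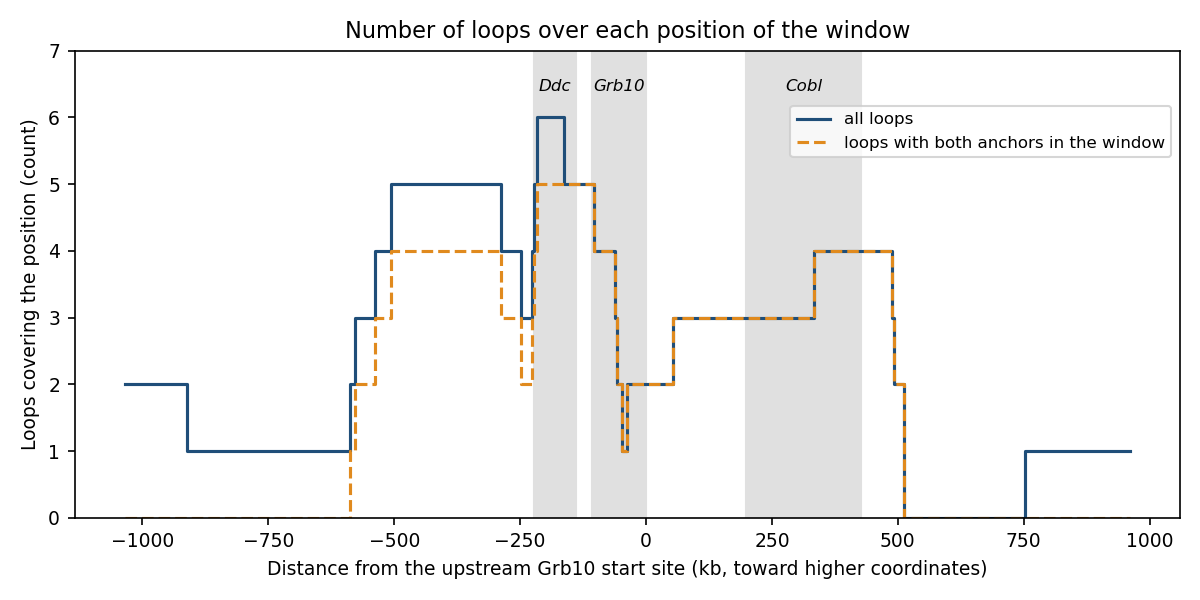
Lines give the number of loops whose extent, anchors included, covers each position, against the distance in kb from the upstream Grb10 start; the solid line counts all loops and the dashed line those with both anchors in the window. The count reaches 6 over Ddc, drops to 1 inside Grb10, is 3 or 4 over Cobl and falls to 0 past the shared anchor.

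Anchors held 3′ ends but no start of the 3 genes. The 3′ ends of Grb10 and Ddc lay in anchors, and that of Cobl was 133.3 kb from the nearest one. Over all protein-coding genes with a strand, 5.19% had the 3′ end at an anchor (896 of 17274) and 5.2% a start site (899). None of the 6 start sites of the 3 genes lay in an anchor. The nearest was the downstream Grb10 start, 2.97 kb from the anchor at 12000001 to 12025000, at percentile 7.35 of the distances of 21045 start sites of protein-coding genes. The upstream Grb10 start was 12.4 kb away, the Ddc starts 15.4 and 23.1 kb, and the Cobl starts 37.1 and 55.04 kb. The median over all start sites was 80.7 kb (quartiles 27.3 and 246.1 kb). The percentiles were 14.7 for the upstream Grb10 start, 16.8 and 22.2 for the Ddc starts and 30.8 and 39.9 for the Cobl starts. The window was picked for its loops, so short distances to anchors describe that choice. With anchors of 5 to 25 kb, a distance of a few kb is within the resolution of the list.

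The starts were also enclosed by more loops than most. At both Grb10 starts 2 loops passed overhead, those from Ddc and from Grb10 to the shared anchor. At both Ddc starts 5 loops passed, and at both Cobl starts 4. Over 17274 protein-coding genes, 63.3% had no loop over the 5′ end, 14.6% had at least 2, 1.28% at least 4 and 0.278% at least 5. These loops are those that defined the locus, so the counts describe it and no more.

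Of the other loops, 2 joined sites between Zpbp and Fignl1, and 2 left the window. Of the 9 protein-coding genes of the window, 7 had an anchor, and 4930512M02Rik and Fignl1, a gene of recombination repair, had none. The share over all protein-coding genes was 17.7%. The divergent starts of Zpbp and Spata48, 1.32 kb apart, lay in 1 anchor, 11460001 to 11465000. It was joined over 325 kb to 11785001 to 11790000, between Ikzf1 and Fignl1, with a peak score of 4.0 (percentile 20.04 of 5 kb pixels). Spata48, a gene of spermatogenesis, was also joined from 11500001 to 11510000 to 11740001 to 11750000 in Ikzf1, which encodes the lymphoid transcription factor Ikaros. That loop of 240 kb had a peak score of 5.59 (percentile 89.5 of 10 kb pixels) and a regional score of 3.43 (percentile 97.7). The start of Vwc2, which encodes a secreted antagonist of bone morphogenetic proteins, lay in an anchor joined over 1800 kb to Abca13 (peak score 4.23). The last loop joined 12790001 to 12800000 to 14240001 to 14250000, over 1450 kb with a peak score of 4.96. Its anchors overlapped no gene record. In the window 3 of 15 start sites of protein-coding genes lay in anchors, against 4.91% of 21045 start sites over all chromosomes analysed. They were those of Vwc2, Zpbp and Spata48, and none of these is 1 of the 3 genes.

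As a group the 13 loops had a median peak score near that of the list. Peak scores ran from 3.60 to 7.14 with a median of 4.36 (95% interval 3.90 to 5.51), against a median of 4.16 over the 4982 loops. Spans ran from 110 to 3275 kb with a median of 450 kb (155 to 1450 kb), against 325 kb. The intervals are binomial intervals of the median over the 13 loops. They treat the loops as independent, although some share anchors, and are wide. That both hold the value of the whole list is therefore no test of likeness. A score at or above the median of the list was found for 8 of 13 loops, against 50% by construction. Scores within a pixel size were uneven. Of the 4 loops of 5 kb pixels, 3 were below the lower quartile of that size (4.12), and the fourth was the loop from Ddc to the body of Grb10. Of the 6 loops of 10 kb pixels, 5 were above the median of 3.996. Loops also overlapped one another in different ways. Among the 78 pairs, 49 lay apart, 13 were nested, 11 crossed and 5 had anchors that overlapped directly, without merging. The loop from Tns3 to Ddc took part in 5 of the crossings. Not all loops that meet past Cobl overlap directly there. Those from Ddc and from the intergenic site counted as crossing, because only merging joins their anchors.

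**Figure D4:**
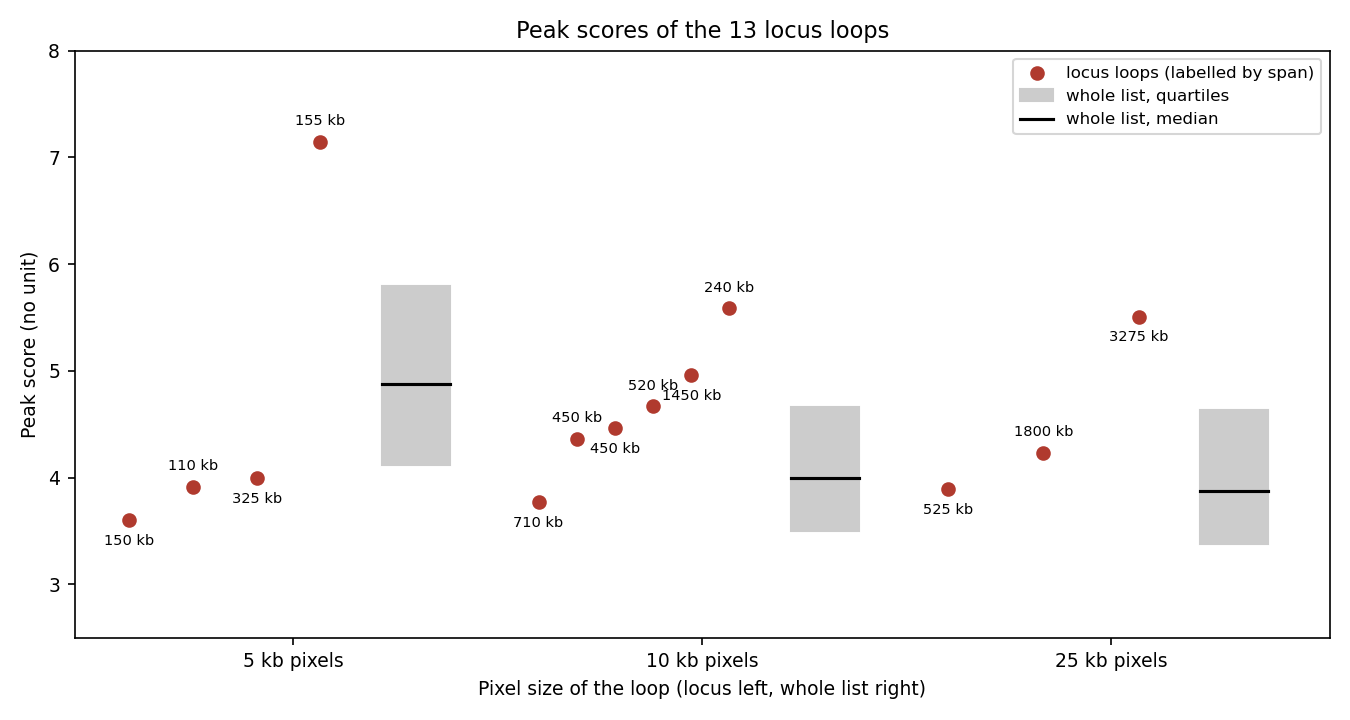
Points give the peak score (no unit) of each locus loop, labelled with its span in kb, beside the quartiles (box) and median (line) of all listed loops of the same pixel size. The 155 kb loop from Ddc to Grb10 stands at 7.14, above the other 5 kb loops of the locus, which lie between 3.60 and 4.0.

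Among 57 imprinted genes written as a list, Grb10 had the most loops. It had 5, followed by Ddc and Trappc9 with 4 each, Asb4 and Gnas with 3, and Commd1, Inpp5f, Ins2 and Ppp1r9a with 2. Another 8 genes had 1 loop, and 40 had none. An anchor overlapped 17 of the 57 genes (29.8%), and 15 of 55 (27.3%) without Grb10 and Ddc, against 17.7% of all protein-coding genes. The imprinted list also holds noncoding genes, and some listed neighbours share a loop, so the sets are not alike. An end of the gene record lay in an anchor for 8 of 57 (14.04%), against 9.04% of protein-coding genes. The exact 95% interval of the imprinted share was 6.26 to 25.8%. Without Grb10 and Ddc, whose locus was picked for its loops, 6 of 55 remained (10.9%). The 8 were Grb10, Ddc, Ins2, Cdkn1c, Magel2, Inpp5f, Asb4 and Htr2a. Longer genes meet more anchors. Among protein-coding genes of 50 to 250 kb, 36.7% overlapped an anchor, 0.569% had at least 4 loops and 0.119% at least 5. The genes of that length with 5 or more loops were Grb10, Plekhg1, Tmem196, Tsc22d1 and Upp2, a set named after its values were seen.

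**Figure D5:**
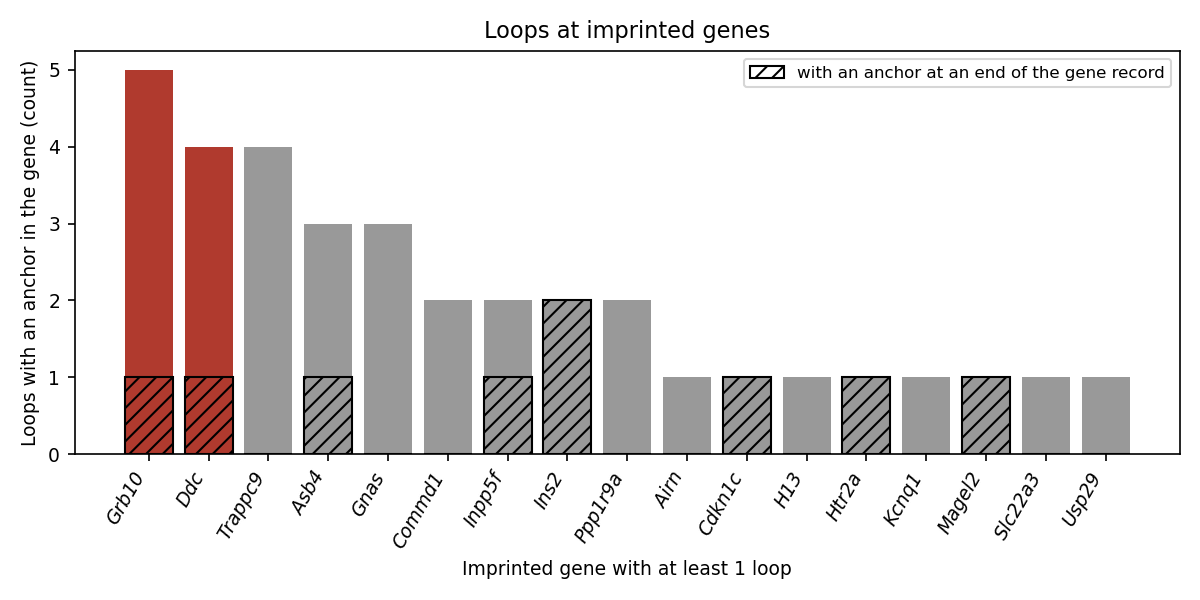
Bars count the loops with an anchor in each of the 17 imprinted genes that have any, and the hatched part counts those with an anchor at an end of the gene record. Grb10 has 5 loops and Ddc 4, with 1 at a gene end in each.

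Genes that share a function with the 3 members were looked up in the same way. In the Grb7 family of adaptors, Grb10 and Grb14 had anchors (5 loops and 1 loop) and Grb7 had none. An anchor overlapped 17.7% of all protein-coding genes and 36.7% of those of 50 to 250 kb. Grb10 and Grb14 are of that length (106.9 and 110.3 kb), and Grb7 covers 8.54 kb. Of 19 genes of insulin and growth factor signalling, 5 had an end at an anchor (26.3%, exact 95% interval 9.15 to 51.2%), against 9.04% of protein-coding genes. They were Insr and Igf1r, the receptors that Grb10 binds, the ligand Igf1, and the receptor substrates Irs1 and Irs2. Their loops at gene ends had peak scores of at most 3.20, 3.51, 4.41, 4.55 and 3.16 in that order. Counted by any overlap of gene and anchor, 6 of the 19 genes had an anchor (31.6%). The shares of 17.7% and 36.7% above use the same count. Of 15 genes of monoamine synthesis and transport, 4 had an end at an anchor (26.7%, interval 7.79 to 55.1%), and 3 of 14 without Ddc. They were Ddc, Th and Tph2, which act in the steps before Ddc, and Slc6a2, the noradrenaline transporter. Of 10 actin nucleators and relatives of Cobl, 2 had an end at an anchor (20%, interval 2.52 to 55.6%). They were Lmod3 and Spire1, and Cobl and Cobll1 had anchors inside the gene. Each of these lists is short, was chosen with earlier results of these data known, and was not tested against other genes. None was matched for gene length. The intervals treat the genes of a list as independent.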

How the data were processed

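Micro-C of 2 siControl samples of V6.5 mouse embryonic stem cells was represented by 1 deposited loop list. The submitters' processing notes name mm10 as the build and Juicer 1.5.6 among the tools. Which caller and cutoffs were used, and whether samples were pooled, is not given in the sources here. The deposited score columns (peak score, regional score), the deposited fraction column (a value that behaves like a probability, 0.987 to 1 at this locus) and the deposited signal columns (peak pixel, peak pixel minus its 8 neighbours, mean of the 3 by 3 block) have no header. Their meanings were inferred from their values, and the map's normalization is unknown.

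Anchors were made 1-based, anchors sharing at least 1 bp were merged, and a span is the distance between anchor midpoints. Genes, strands, start sites and sequences came from RefSeq tables of GRCm38.p6. Of 21631 protein-coding genes, 17274 had a promoter window and so a strand. The start site of the window equalled the outer end of the gene record for 60.0% of these genes. No genome was used here, so anchors were not searched for motifs. Percentiles of loop scores and signals are ranks within a pixel size of this list and were not matched for span. Exact and Wilson intervals cover counting error only. The members and gene lists were chosen with earlier results of these data known. Named were the 3 genes, every gene at an anchor of the locus, every protein-coding gene of the window, and listed genes with an end at an anchor. Other genes named for their place beside an anchor, for loops inside a listed gene, as family members without one, or for having 5 or more loops were chosen after their values were seen. Interval functions recovered 200 of 200 planted positions in simulated data. Python 3.11.15, numpy 2.4.6, pandas 2.3.3 and scipy 1.17.1 were used. Alternatives on start sites and on loops per gene were added after seeing the data.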

Additional observations from a re-analysis of the deposited data

How the results depend on the processing

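No paired analysis was possible because both samples share a single loop list, and so neither sample could be left out. Of 43 alternative values, 23 stayed within 1.5 times the count or within the interval of the value, and 20 moved further. With only 5 kb pixels the locus had 4 loops (2 per Mb, median span 152.5 kb), 1 of the 3 genes had an end at an anchor, 1 loop stood at the most shared anchor, and 5.26% of imprinted genes had an end at an anchor. With only 10 kb pixels there were 6 loops (2.75 per Mb), 1 gene end and 1 loop at the most shared anchor. With loops at or above the median peak score of the list there were 8 loops (3.25 per Mb), 0 gene ends and 2 loops at the most shared anchor, with 3 loops left for Grb10, 2 for Ddc and 0 for Cobl. Both gene ends at anchors thus rest on loops that score below the median. Counting only identical anchors together left 1 loop at the most shared anchor. With anchors widened by 5 kb, 1 start site, the downstream one of Grb10, lay in an anchor. Any overlap raised the imprinted share to 29.8%. Single pixel sizes and higher scores keep fewer loops by construction, and whether this alone lowered the other values was not tested. Across the whole list, those called at 5 kb were also shorter (median 190 kb) than all loops together (325 kb). Read depth is unknown, so how many weaker loops were missed cannot be told.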
